A study of Homo sapiens with 12 samples.

Results

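The chromosome 19 microRNA cluster (C19MC) is represented here by 7 mature strands: hsa-miR-512-3p, hsa-miR-516b-5p, hsa-miR-1323, hsa-miR-516a-5p, hsa-miR-522-3p, hsa-miR-520a-3p and hsa-miR-526b-5p. They are the listed cluster strands that occur in the tables of both comparisons of the series, 7 of 952 microRNAs measured in either table. The list was chosen by name with the measured levels, fold changes and errors of these strands known, so those values are a description and carry no test of their own. All 7 stood at higher mean levels in ZSWIM8 KO cells than in WT cells, with errors 3.32 to 7.18 times those of microRNAs of like abundance, and none passed the test in either comparison. For 19 rarer strands of the cluster whose reads could be assigned, 186 of 187 reads came from 2 of the 3 ZSWIM8 KO libraries. Other rare strands were not assigned or allowed more than a single reading.

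C19MC is a primate-specific, imprinted array of microRNA genes that is transcribed mainly in the placenta, where trophoblast cells carry its products, and in some pluripotent cells and tumours. Each hairpin is cut to a 5p and a 3p strand, and a strand loaded into an Argonaute protein finds its target RNAs mainly through its seed, the bases near its 5′ end. Target-directed microRNA degradation removes a microRNA that is bound to an extensively paired target. ZSWIM8 is the substrate receptor of the ubiquitin ligase that acts in this process, and the long non-coding RNA CYRANO is the target that directs the decay of miR-7.

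Small RNA was sequenced from K562 cells, a human erythroleukaemia line that is not of placental origin. ZSWIM8 KO cells, labelled ZSWIM8-/- and given no guide RNA, were compared with WT cells given no guide RNA. Cells that received a guide RNA against CYRANO (sgCYRANO) were compared with cells that received a non-targeting guide RNA (sgNT). Each of the 4 groups had 3 libraries, labelled as separate replicates, and the sources used here do not say whether the knockout cells were 1 clone. Where replicates are cultures of 1 line, p-values measure the spread between such cultures.

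In RefSeq the 43 cluster hairpins found here lie on the plus strand of chromosome 19, at chr19:53666679-53762430 in build GRCh38.p14. Mature sequences were found for 6 of the 7 strands in RefSeq, and they are shown because the strands are related by copying yet differ in their seeds. Each is written 5′ to 3′ with its seed, bases 2 to 8, in capitals.
hsa-miR-512-3p: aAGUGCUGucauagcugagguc
hsa-miR-520a-3p: aAAGUGCUucccuuuggacugu
hsa-miR-516b-5p: aUCUGGAGguaagaagcacuuu
hsa-miR-516a-5p: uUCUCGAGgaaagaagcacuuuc
hsa-miR-526b-5p: cUCUUGAGggaagcacuuucugu
hsa-miR-1323: uCAAAACUgaggggcauuuucu

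No seed of 7 bases was shared by any 2 of these 6 strands. Bases 1 to 7 of hsa-miR-512-3p were the same AAGUGCU as bases 2 to 8 of hsa-miR-520a-3p, so the 2 strands carry this word shifted by 1 base. The 3 listed 5p strands of the miR-516 and miR-526 hairpins shared the stretch GAAGCACUUU, whose reverse complement AAAGUGCUUC is the 5′ start of hsa-miR-520a-3p. The stretch starts at base 13 in hsa-miR-516b-5p and hsa-miR-516a-5p and at base 10 in hsa-miR-526b-5p. Among the 865 measured microRNAs with a RefSeq sequence, 6 held that stretch, all of them strands of the cluster. Over the 22 bases compared, hsa-miR-516b-5p and hsa-miR-516a-5p differed at 3 positions counted from the 5′ end, A1U, G5C and U10A, of which G5C lies in the seed. hsa-miR-512-3p, hsa-miR-516b-5p and hsa-miR-516a-5p are each encoded by 2 hairpins. The sources used here do not tell how reads that match several copies or near-identical relatives were counted, so the level of each single strand is uncertain in that respect.

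Among the measured microRNAs outside the cluster, 2 carry the seed of hsa-miR-520a-3p, and are shown for that reason. They come from the miR-371 to miR-373 hairpins, which start 25.2 kb beyond the last hairpin of the cluster, at chr19:53787675-53788773, and are known from pluripotent cells and germ-cell tumours.
hsa-miR-372-3p: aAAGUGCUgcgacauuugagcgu
hsa-miR-373-3p: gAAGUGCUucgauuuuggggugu

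The deposited tables give comparisons rather than libraries, and group means in CPM, the reads of a microRNA per 1000000 microRNA reads, were recovered from them. The direction of a fold change is not stated in the files. It was read as ZSWIM8 KO over WT and sgCYRANO over sgNT, with which hsa-miR-7-5p averaged 23492 CPM in ZSWIM8 KO against 4616 CPM in WT, and 34882.5 CPM in sgCYRANO against 6102 CPM in sgNT. If that reading were turned, each pair of group means below would change places. Library totals recovered from the smallest values ran from about 861000 to 2490000 reads. The 5 erythroid strands of miR-451a, miR-144 and miR-486 were all measured, with summed levels of 15641 CPM in ZSWIM8 KO and 16250 CPM in WT, and of 13696 CPM in sgCYRANO and 13290 CPM in sgNT. Most of each sum was hsa-miR-486-5p, at 13386 CPM in ZSWIM8 KO and 14448 CPM in WT. hsa-miR-451a averaged 956 CPM in ZSWIM8 KO and 574 CPM in WT, and hsa-miR-144-3p 239 CPM in ZSWIM8 KO and 119 CPM in WT, neither of which passed. hsa-miR-486-3p, at 567 CPM in ZSWIM8 KO and 748 CPM in WT, was the single one of the 5 to pass, with adjusted p = 0.0427 by edgeR in the authors' deposited table. No strand of the pluripotency miR-302 and miR-367 hairpins was in either table.

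The 7 strands together held 298 CPM in ZSWIM8 KO cells and 118 CPM in WT cells, a ratio of 2.53. They made up 0.0298% of microRNA reads in ZSWIM8 KO cells and 0.0118% in WT cells. In sgCYRANO cells they summed to 156 CPM and in sgNT cells to 158 CPM, a ratio of 0.983. In bulk RNA, more cells that express the cluster and more of its RNA per cell cannot be told apart. By mean abundance the strands ranked 181 to 301 among the 868 microRNAs of the ZSWIM8 table and 196 to 329 among the 837 of the CYRANO table.

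hsa-miR-512-3p, from the 5′-most hairpins of the cluster, was the most abundant of the 7 in every group, at 83.7 CPM in ZSWIM8 KO and 33.0 CPM in WT, and at 41.3 CPM in sgCYRANO and 46.1 CPM in sgNT. hsa-miR-516b-5p averaged 65.2 CPM in ZSWIM8 KO and 26.5 CPM in WT, and 23.6 CPM in sgCYRANO and 31.5 CPM in sgNT. hsa-miR-1323 averaged 54.8 CPM in ZSWIM8 KO and 21.5 CPM in WT, and 30.9 CPM in both sgCYRANO and sgNT. These 3 strands held the first 3 places in all 4 groups, and hsa-miR-516b-5p stood ahead of hsa-miR-1323 in all but sgCYRANO, where the order was turned.

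hsa-miR-516a-5p averaged 32.6 CPM in ZSWIM8 KO and 6.62 CPM in WT, and 23.2 CPM in sgCYRANO and 19.4 CPM in sgNT. It stood next after those 3 in ZSWIM8 KO, sgCYRANO and sgNT and was last of the 7 in WT. Reads were assigned to libraries only where a group's summed CPM was under a chosen limit of 20. Within it hsa-miR-516a-5p was the single listed strand with assigned reads, in WT alone. Its 28 WT reads fell as 18, 6 and 4 reads from the deepest to the shallowest library, or 9.73, 5.48 and 4.65 CPM, so that each WT library lay below the ZSWIM8 KO mean.

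The other 3 strands averaged 24.1 CPM or less in every group. hsa-miR-522-3p averaged 24.1 CPM in ZSWIM8 KO and 9.13 CPM in WT, and 16.8 CPM in sgCYRANO and 10.7 CPM in sgNT. hsa-miR-520a-3p, which carries the seed shared with hsa-miR-372-3p, averaged 23.5 CPM in ZSWIM8 KO and 14.2 CPM in WT, and 14.1 CPM in sgCYRANO and 11.7 CPM in sgNT. hsa-miR-526b-5p averaged 14.2 CPM in ZSWIM8 KO and 6.94 CPM in WT, and 5.73 CPM in sgCYRANO and 8.06 CPM in sgNT. The tables hold no spread of a level within a group, so neighbours in these orders cannot be said to differ. The lowest listed strand averaged 10.6 CPM over ZSWIM8 KO and WT, and the highest strand of the cluster outside the list, hsa-miR-518b, averaged 8.79 CPM. The other strand of the miR-520a hairpin, hsa-miR-520a-5p, stayed below the 3p strand throughout, with a 3p to 5p ratio of 2.16 in ZSWIM8 KO and 2.47 in WT, and of 2.27 in sgCYRANO and 1.86 in sgNT.

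**Figure D1:**
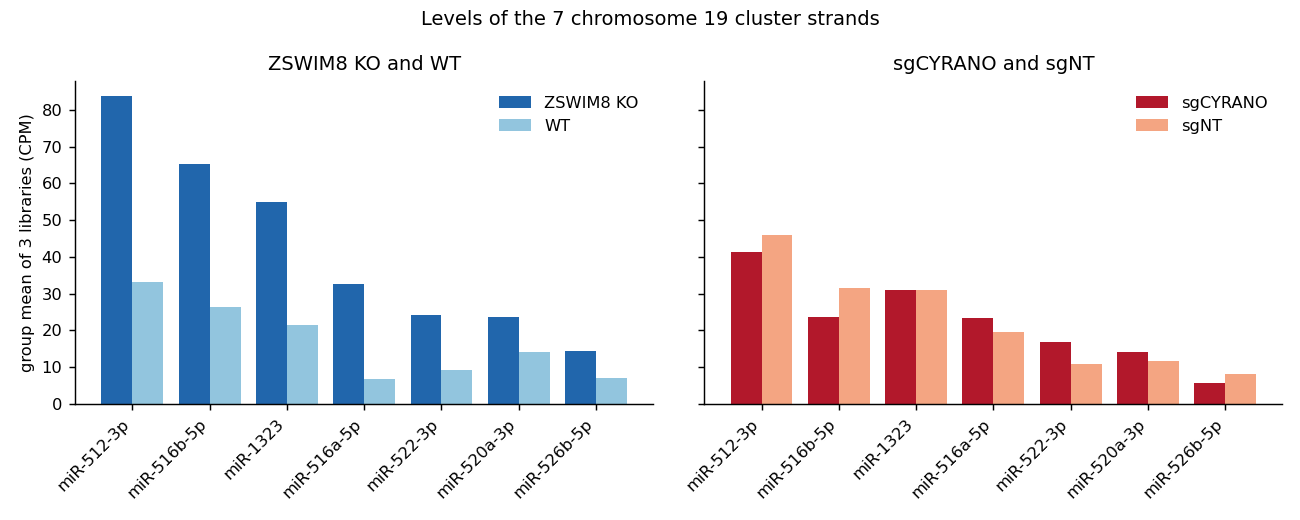
Group means (CPM, bars) of the 7 listed strands, with ZSWIM8 KO and WT in the left panel and sgCYRANO and sgNT in the right panel. Each bar is a mean of 3 libraries whose single values the tables do not hold, and the ZSWIM8 KO bar of hsa-miR-512-3p stands at 83.7 CPM beside 33.0 CPM in WT.

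None of the 7 strands passed an adjusted p of 0.05 in ZSWIM8 KO against WT in the authors' deposited table, where 86 of 868 microRNAs, or 9.91%, passed, 41 of them higher and 45 lower. Centred on the median of microRNAs at 10 CPM or more, which lay at a log2 fold change of 0.13, 30 were higher and 62 lower, and the 7 strands stayed above 0. The log2 fold changes of all 7 were positive in the authors' deposited table, with a median of 1.34, against a median of 0.08 over all 868 microRNAs. The lowest was 0.72 for hsa-miR-520a-3p and the highest 2.28 for hsa-miR-516a-5p. Adjusted p ran from 0.449 for hsa-miR-516a-5p to 0.880 for hsa-miR-520a-3p by edgeR's quasi-likelihood test in the authors' deposited table. No unadjusted p was under 0.05 among the 7, against 172 of all 868.

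The intervals were wide. For hsa-miR-512-3p the log2 fold change of 1.34 in the authors' deposited table had a 95% interval of -2.44 to 5.11. For hsa-miR-516a-5p the interval around 2.28 in the authors' deposited table ran from -0.72 to 5.28. The intervals take a normal reference, which makes them too narrow at the low degrees of freedom given below for these strands. Even so, these bounds leave room for large changes in either direction. The positive values therefore do not show a change of these strands between ZSWIM8 KO and WT.

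In sgCYRANO against sgNT the signs were mixed. Of the 7 log2 fold changes in the authors' deposited table, 3 were positive and 4 negative, from -0.48 for hsa-miR-526b-5p to 0.64 for hsa-miR-522-3p, with a median of -0.00 beside 0.01 over all 837 microRNAs. None passed an adjusted p of 0.05 by edgeR's quasi-likelihood test, where 1 of 837, or 0.119%, passed. hsa-miR-522-3p had the smallest p of the 7, unadjusted 0.0432 and adjusted 0.816 by edgeR in the authors' deposited table, and 49 of the 837 microRNAs had an unadjusted p under 0.05. hsa-miR-516b-5p followed at a log2 fold change of -0.41, unadjusted p = 0.0663 and adjusted p = 0.876 by edgeR in the authors' deposited table.

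**Figure D2:**
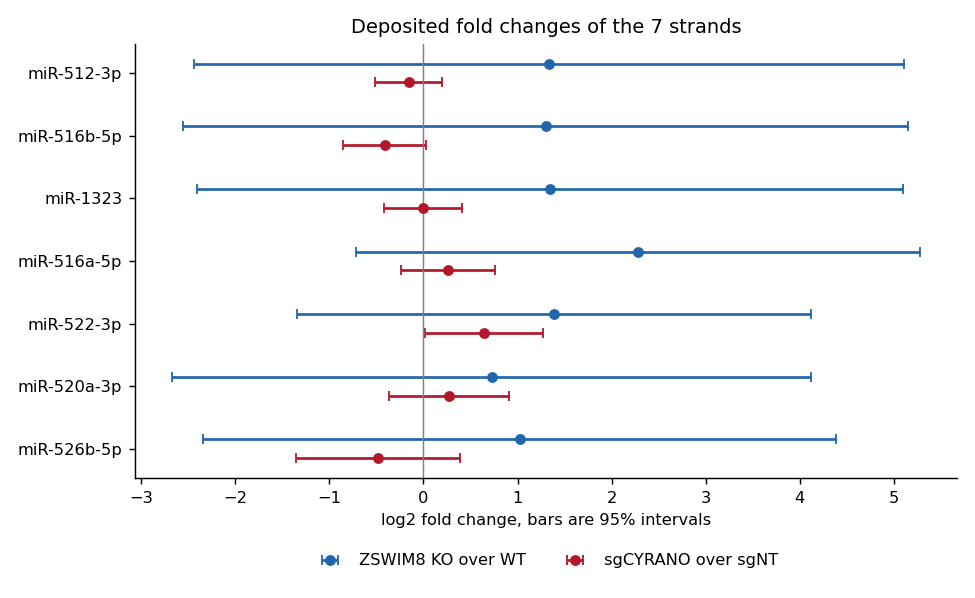
Deposited log2 fold changes (x axis) of the 7 strands for ZSWIM8 KO over WT and sgCYRANO over sgNT. Bars are 95% intervals from the deposited p with a normal reference. The ZSWIM8 KO values run from 0.72 to 2.28 with intervals that all include 0, and the sgCYRANO values run from -0.48 to 0.64.

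The log2 fold change in ZSWIM8 KO minus that in sgCYRANO was positive for all 7 strands, from 0.45 for hsa-miR-520a-3p to 2.02 for hsa-miR-516a-5p. With the errors of both tables joined and a normal reference, no difference passed among the 7, at adjusted p of 0.616 to 0.942 over the 753 microRNAs in both tables, of which 50, or 6.64%, passed. For hsa-miR-516a-5p the 95% interval of the difference ran from -1.02 to 5.06.

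In ZSWIM8 KO against WT the errors of these strands were large for their abundance. The error of a log2 fold change, taken from the deposited F, was 1.76 for hsa-miR-512-3p, 1.81 for hsa-miR-516b-5p and 1.75 for hsa-miR-1323. It was 1.62 for hsa-miR-520a-3p, 1.59 for hsa-miR-526b-5p, 1.25 for hsa-miR-516a-5p and 1.24 for hsa-miR-522-3p. Over the median error of the nearest microRNAs in abundance these gave ratios of 7.18, 6.67, 6.07, 4.52, 3.82, 3.53 and 3.32 in the same order. All 7 ratios were above 3. Among microRNAs that averaged 10 CPM or more, as all 7 did here, 14 of 304, or 4.61%, were above 3. Over all 868 microRNAs 18 were, or 2.07%, and 11 of those 18 were strands of the cluster. Besides the 7 these were hsa-miR-520a-5p, hsa-miR-518b, hsa-miR-519d-3p and hsa-miR-515-5p. The other 7 were hsa-miR-451a, hsa-miR-452-5p, hsa-miR-375-3p, hsa-miR-584-5p, hsa-miR-218-5p, hsa-miR-543 and hsa-miR-100-5p, named after their values were seen.

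The F and the p of a row together imply a value for its degrees of freedom. Where p rests on F alone, it shows how far a microRNA's own libraries set its error. The reason is that edgeR moves each microRNA's variance toward a shared value, and under some settings less so where its libraries vary much. The settings used are not given. In the ZSWIM8 table the implied value was most often 164.1 and never below 4.33, close to the 4 that 6 libraries in 2 groups give without sharing. All 7 strands lay within 1% of that smallest value, with 21 of 868 microRNAs, or 2.42%, and 11 of the 21 were strands of the cluster. Among microRNAs at 10 CPM or more, 16 of 304 lay there.

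In the CYRANO table errors followed abundance almost as a single curve, and F and p most often implied 3348 degrees of freedom, as a variance shared by all microRNAs gives. Of the 7 strands only hsa-miR-512-3p had that value, and all the others had far lower ones. hsa-miR-520a-3p at 2.69 and hsa-miR-526b-5p at 2.76 lay below the 4 that 6 libraries in 2 groups give without sharing. The implied value in this table therefore cannot be read as in the ZSWIM8 table, and no contrast between the tables is drawn from it. In the CYRANO table the 7 ratios of error lay between 0.977 and 1.01. The ratio was above 3 for 4 of 837 microRNAs, none of them a strand of the cluster, and highest for hsa-miR-100-5p at 6.11. No error of the 7 strands was of that size in sgCYRANO against sgNT. Because errors there followed abundance, these ratios do not show how evenly a strand's own libraries were spread.

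**Figure D3:**
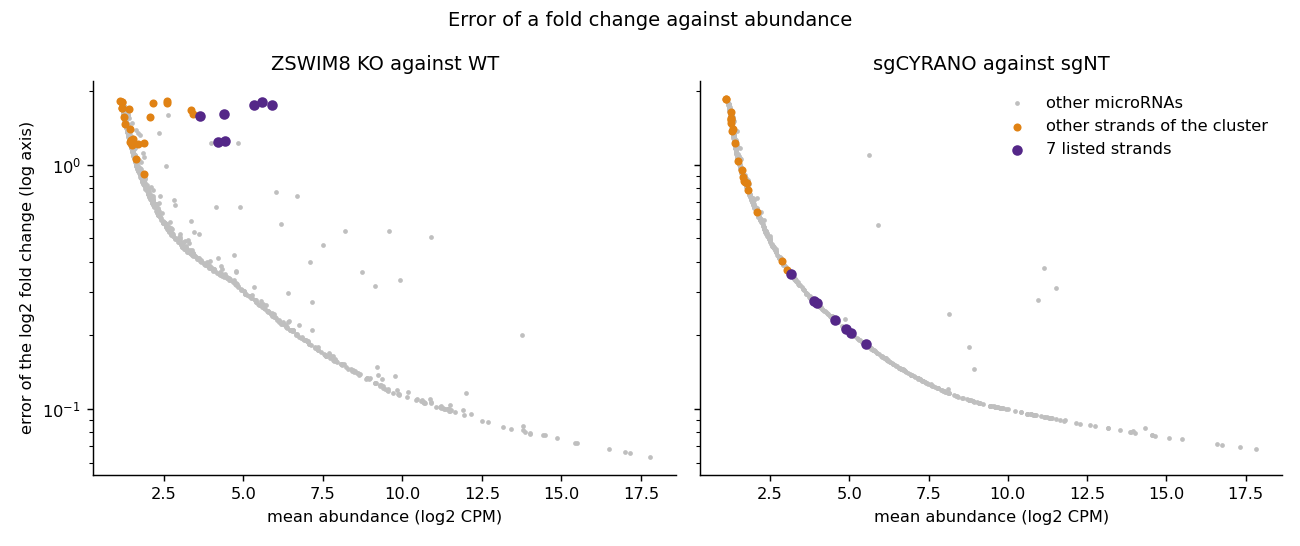
Error of the log2 fold change (y axis, log scale) against mean abundance (log2 CPM) for every microRNA in ZSWIM8 KO against WT (left) and sgCYRANO against sgNT (right). The 7 listed strands lie between 1.24 and 1.81 in the left panel, far above the grey band of other microRNAs, and on the band in the right panel.

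The 5 microRNAs nearest to hsa-miR-512-3p in level over the 4 groups did not have its error. They were hsa-miR-1255a, hsa-miR-5010-3p, hsa-miR-1226-3p, hsa-let-7d-5p and hsa-miR-181b-5p, at Euclidean distances of 0.56 to 0.79 in log2 CPM after adding 0.5 CPM to each group mean. hsa-miR-1255a, the nearest, averaged 68.5 CPM in ZSWIM8 KO and 45.6 CPM in WT, and 38.6 CPM in sgCYRANO and 43.4 CPM in sgNT. Its ratio of error in ZSWIM8 KO against WT was 0.971, beside 7.18 for hsa-miR-512-3p, and those of the other 4 lay between 0.967 and 0.991.

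Reads of single libraries could be read back for rare strands, because a group's summed CPM is then a sum of few whole reads, each worth a fixed CPM in its library. All distinct group sums under 20 CPM were matched by whole reads in 3 libraries. There were 224 such sums in ZSWIM8 KO, 194 in WT, 252 in sgCYRANO and 255 in sgNT. The CPM of a read in each library was chosen to match as many of them as possible, so the full match is no separate check. The libraries are named here by depth, since their totals cannot be tied to replicate numbers. In ZSWIM8 KO the 2 deeper libraries had about 2490000 and 2480000 reads, where 1 read is worth 0.402 and 0.403 CPM. Many strands therefore gave no single split between them. Their reads are given together beside those of the third library, of about 2090000 reads, which does not make them alike. The 6 cluster strands with a single split held 23 reads in the deepest library and 53 in the next, or 9.25 and 21.3 CPM. Such splits rest on a very small step in CPM. The 315 other microRNAs with a single split were uneven too, at 848 and 1331 reads.

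Of the 30 cluster strands in the ZSWIM8 table, 19 could be read this way in ZSWIM8 KO, none of them among the 7 listed. They held 186 reads in the 2 deeper libraries and 1 read in the third. The third library's share was thus 0.535% of 187 reads, with an exact 95% Clopper-Pearson interval of 0.0135% to 2.94%. The same library held 32.9% of the 4939 reads of 455 other microRNAs read in the same way (31.6% to 34.2%) and 29.6% of all reads of the group. These intervals cover counting error only, since reads are not independent molecules.

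Strand by strand the same library was empty or nearly so. hsa-miR-518c-3p had 29 reads in the 2 deeper ZSWIM8 KO libraries and 1 in the third. hsa-miR-520d-3p and hsa-miR-520e-3p, which share the seed of hsa-miR-520a-3p, had 20 and 15 reads in the deeper libraries and 0 in the third. hsa-miR-525-5p had 19, hsa-miR-517c-3p 16, hsa-miR-498-5p 11, and hsa-miR-1283 and hsa-miR-518e-3p 10 each, all with 0 in the third. These 8 strands are all those of the cluster with 10 or more assigned reads in ZSWIM8 KO, and each had 0 or 1 read in the third library, as had 11 of 188 other microRNAs with 10 or more reads, or 5.85%.

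The other 11 strands also had no read in the third ZSWIM8 KO library, which at its depth allows up to 1.44 CPM for each. hsa-miR-518c-5p, hsa-miR-520e-5p and hsa-miR-524-5p had 9 reads each in the deeper libraries and hsa-miR-517-5p had 5. hsa-miR-498-3p, hsa-miR-518a-3p and hsa-miR-519d-5p had 4 each, and hsa-miR-518d-3p, hsa-miR-518f-3p, hsa-miR-520d-5p and hsa-miR-526b-3p had 3 each. hsa-miR-518d-3p and hsa-miR-518f-3p are listed with identical values in both groups, as are hsa-miR-518a-3p and hsa-miR-519d-5p. Whether the same reads stand under both names of a pair is not known. In sgCYRANO against sgNT hsa-miR-518f-3p was listed without hsa-miR-518d-3p. A further 2 strands allowed 2 readings: hsa-miR-515-5p had either 42 reads and 0 in the third library or 23 and 16, and hsa-miR-519d-3p either 48 and 1 or 29 and 17.

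WT cells had no such library. The 20 cluster strands with reads that could be assigned there, hsa-miR-516a-5p included, held 111 reads, of which 52, 30 and 29 came from the deepest to the shallowest library. The shallowest held 26.1% of them (18.2% to 35.3%), beside 21.9% of the reads of 487 other microRNAs and 22.6% of all reads of the group. hsa-miR-520a-5p had 5, 7 and 7 reads in the 3 WT libraries, and hsa-miR-518b had 7, 6 and 2. hsa-miR-515-5p had 4, 0 and 5, and hsa-miR-519d-3p 4, 0 and 2. Thus 2 of these 4 strands were seen in all 3 WT libraries and 2 in all but the middle one.

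In the guide-RNA cells every library held reads of the rare strands. In sgCYRANO 16 strands held 61 reads, of which 31, 11 and 19 came from the deepest to the shallowest library, and in sgNT 16 strands held 87 reads, split as 40, 27 and 20. The shallowest library held 31.1% of them in sgCYRANO (19.9% to 44.3%) and 23.0% in sgNT (14.6% to 33.2%), beside 31.5% and 28.1% of all reads of those groups. In sgCYRANO the spread did not follow depth: the middle library held 18.0% of them (9.36% to 30.0%) beside 33.5% of all reads, and the deepest 50.8% (37.7% to 63.9%) beside 35.0%, or 6.21 CPM in the middle and 16.8 CPM in the deepest library. In sgNT the deepest library held 46.0% of them (35.2% to 57.0%) beside 42.0% of all reads.

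**Figure D4:**
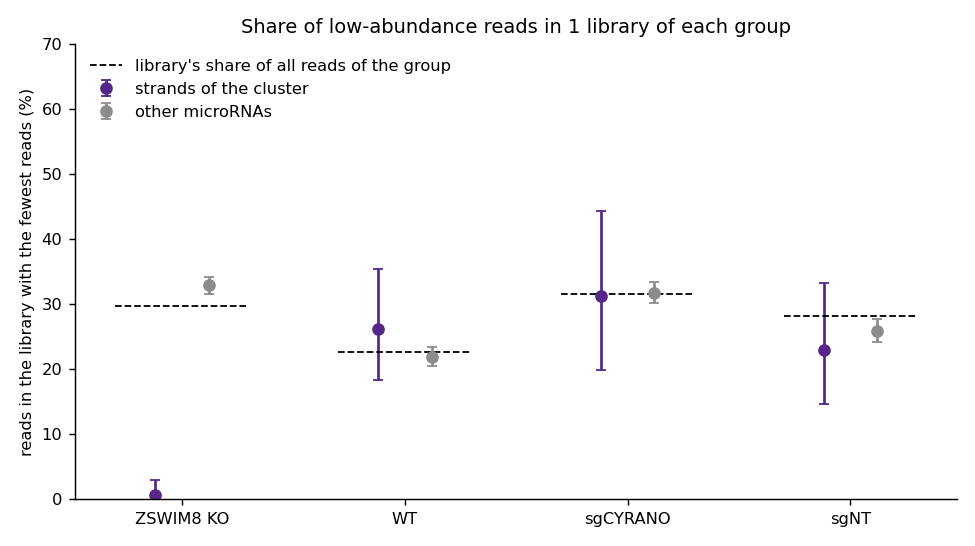
Share (%) of reads that fell in the library with the fewest reads of each group, for rare cluster strands and for other rare microRNAs, with exact 95% intervals as bars and the library's share of all reads as a dashed line. The cluster strands that could be assigned stand at 0.535% in ZSWIM8 KO and between 23.0% and 31.1% in the other groups.

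The 19 strands read in both groups summed to a mean of 37.4 CPM over the 2 deeper ZSWIM8 KO libraries and to 0.478 CPM in the third. The mean over the WT libraries was 9.14 CPM. The value of the third library rests on 1 read. Of the 19 strands, 4 had no read in WT and so were in the filtered table only through ZSWIM8 KO, which raises the ratio of ZSWIM8 KO to WT. It is given as a description, since it depends on which strands pass the filter. The mean of the 2 deeper libraries was 4.09 times the WT mean over the 19 strands. It was 3.63 times over the 15 with a read in WT and 3.71 times over the 13 that are also in the CYRANO table. Over all 3 ZSWIM8 KO libraries the log2 ratio to WT was 1.46 over the 19 strands, 1.29 over the 15 and 1.32 over the 13. Without the third library these were 2.03, 1.86 and 1.89. For the 7 listed strands the split over ZSWIM8 KO libraries was not read, since their sums lay above the chosen limit of 20 CPM. Whether that library sets their errors was not tested.

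**Figure D5:**
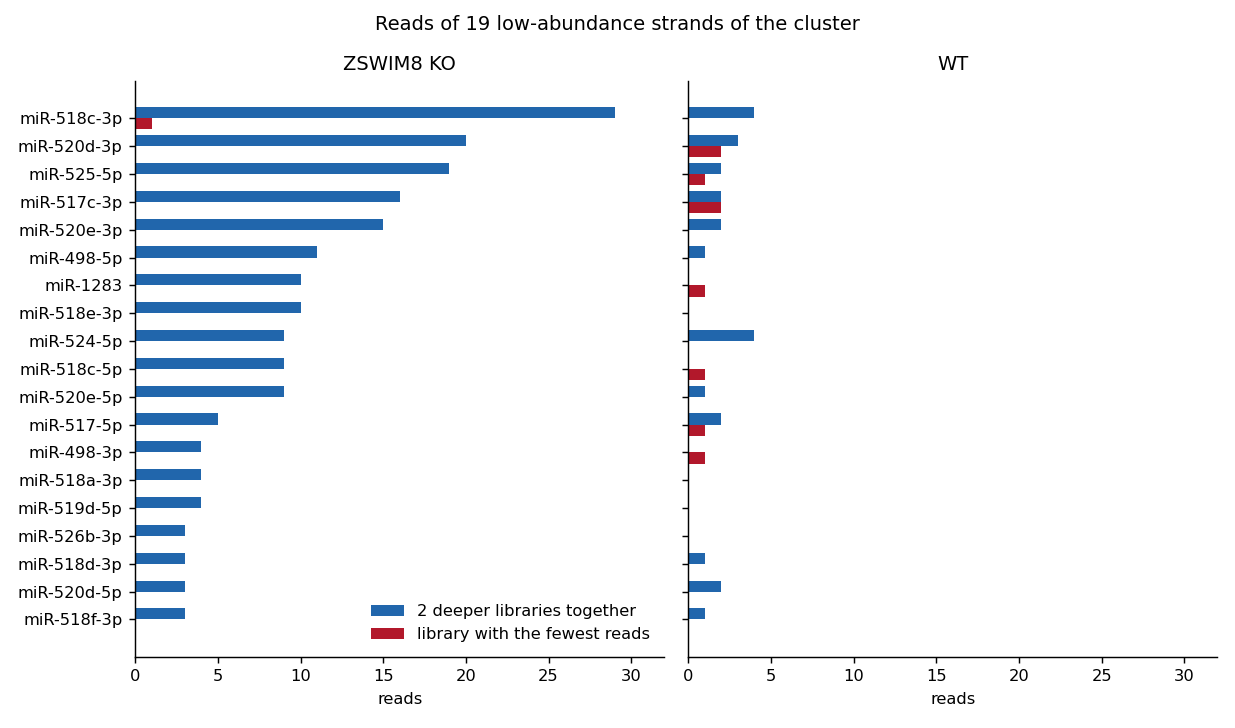
Reads (x axis) of the 19 cluster strands that could be assigned to libraries in ZSWIM8 KO, shown for ZSWIM8 KO (left) and WT (right), with the 2 deeper libraries together in blue and the library with the fewest reads in red. In ZSWIM8 KO 1 of 187 reads lies in the library with the fewest reads, whereas WT has reads in both classes.

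Over the whole cluster none of 30 strands passed in ZSWIM8 KO against WT and none of 27 in sgCYRANO against sgNT. Of all microRNAs 86 of 868, or 9.91%, and 1 of 837, or 0.119%, passed in the same order. In the authors' deposited table for ZSWIM8 KO against WT, the 30 log2 fold changes had a median of 1.36. Of them 29 were positive, beside 470 of all 868 microRNAs. The exception in sign was hsa-miR-517-5p, at -0.13 in the authors' deposited table. Of the 30, 13 averaged under 1 CPM and 4 had no WT read, which fixed the sign of those 4. hsa-miR-518e-3p, 1 of the 4, alone had an unadjusted p under 0.05, at 0.0424 with an adjusted p of 0.227 by edgeR. Over all 868 microRNAs 172 had an unadjusted p under 0.05 by edgeR. In sgCYRANO against sgNT 13 of 27 were positive and 14 negative in the authors' deposited table, with a median of -0.00. Over all 837 microRNAs 430 were positive and 407 negative. The whole cluster summed to 360 CPM in ZSWIM8 KO and 141 CPM in WT, and to 182 CPM in sgCYRANO and 185 CPM in sgNT. In ZSWIM8 KO 4 strands found in no WT library were seen, hsa-miR-518e-3p, hsa-miR-518a-3p, hsa-miR-519d-5p and hsa-miR-526b-3p, at 0.403 to 1.34 CPM. They rested on 10, 4, 4 and 3 reads in the same order. Over all 868 microRNAs 22 were seen in ZSWIM8 KO and in no WT library, or 2.53%, and 34 in WT and in no ZSWIM8 KO library. The 3 ZSWIM8 KO libraries held about 7060000 reads and the 3 WT libraries about 3810000.

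The neighbouring miR-371 to miR-373 hairpins did not have the wide errors of the cluster. hsa-miR-372-3p averaged 22.0 CPM in ZSWIM8 KO and 11.1 CPM in WT, with a log2 fold change of 0.97 and adjusted p = 0.151 by edgeR in the authors' deposited table, and a ratio of error of 1.11. hsa-miR-373-3p averaged 10.8 CPM in ZSWIM8 KO and 4.72 CPM in WT, with a log2 fold change of 1.17 and adjusted p = 0.113 by edgeR in the authors' deposited table, and a ratio of 1.06. Its 17 WT reads fell as 7, 5 and 5 over the libraries. hsa-miR-371a-5p had 8 reads in the 2 deeper ZSWIM8 KO libraries and 1 in the third, too few to place its share of 11.1% (0.281% to 48.2%).

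hsa-miR-372-3p averaged 23.9 CPM in sgCYRANO and 15.7 CPM in sgNT, with an unadjusted p of 0.0239 and an adjusted p of 0.801 by edgeR in the authors' deposited table. hsa-miR-373-3p averaged 11.1 CPM in sgCYRANO and 10.0 CPM in sgNT. hsa-miR-373-5p, a rare strand, averaged 0.740 CPM in sgCYRANO and had no read in sgNT. None of these strands passed.

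Other clusters and the erythroid strands were compared for spread. The imprinted 14q32 cluster had 37 strands in the ZSWIM8 table, of which none passed, with a median log2 fold change of 0.71 in the authors' deposited table, a median ratio of error of 1.02 and 1 strand above 3. Its summed level was 209 CPM in ZSWIM8 KO and 125 CPM in WT. Most of its strands were rare, and over the 6 that averaged 10 CPM or more, as all 7 listed strands did in this table, the median ratio was 1.52, from 0.994 to 3.19 for hsa-miR-543. The 5 erythroid strands had a median ratio of 2.56, from 1.03 for hsa-miR-486-3p to 4.41 for hsa-miR-451a, and 2 of them lay within 1% of the smallest degrees of freedom. Wide errors in this table were therefore found outside C19MC as well. The X-linked miR-105 and miR-767 cluster had 4 strands, of which 2 passed and were higher in ZSWIM8 KO, with ratios of error of 0.957 to 1.02. In the same table the median ratio was 4.52 over the 7 listed strands and 1.27 over all 30 strands of C19MC, of which 13 averaged under 1 CPM, where errors were large for all microRNAs.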

How the data were processed

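Per the labels' protocols, K562 RNA was isolated with miRNeasy and sequenced after a NEBNext small-RNA preparation. Programs named in the submitters' processing notes, with no roles or order, are edgeR, featureCounts, STAR, bcl2fastq and FastQC 0.11.2, and the build named is hg19. The authors deposited 1 table per comparison, named as filtered for low values. Per the file headers each row holds the log2 fold change, the mean log2 CPM, an F statistic (used as a score), a p-value and an adjusted p-value, all deposited by the authors. The treatment of multi-mapping reads is not given there.

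The members and lists were chosen with earlier results of these data known. Named microRNAs are the 7 listed strands, every other strand of the cluster, the miR-371 to miR-373 strands, sharers of a seed, the 5 nearest in level and the cell-line checks.

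Group means were recovered by inverting the mean log2 CPM (prior count 2) and the fold change (prior count 0.125), with the CPM per library set so that groups without reads came out at 0. Sums of 3 libraries came out as whole thousandths of a CPM, to within 0.205 thousandths under 20 CPM, so the tested values were CPM with 3 decimals. A read was worth 0.540 CPM in the deepest WT library and 1.16 CPM in the shallowest. How the use of CPM in place of counts bears on the deposited p-values, and on errors drawn from them, was not tested. Each sum under 20 CPM was then written as whole reads in 3 libraries, and a strand was used where all exact readings gave the same split. The recovery and the tests were tested on simulated data of the same depths. Errors for intervals divide a fold change by the normal deviate that its deposited p implies, and those for ratios divide it by the root of F (against the median of 101 neighbours in abundance). Python 3.11.15, numpy 2.4.6, pandas 2.3.3, scipy 1.17.1 and matplotlib 3.10.9 were used. Sequences and hairpin positions are RefSeq's, build GRCh38.p14, matched by name. Alternatives were centring, pseudocounts, filters, 4 degrees of freedom, the width of the running median, the source of the error, and sums of other strands. The files hold no library values, so count tests, left-out replicates and blocks were not run.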

Additional observations from a re-analysis of the deposited data

How the results depend on the processing

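The 56 alternative values of the 7 strands' fold changes and of their differences kept their direction in all but 1 case. Centred on the median at 10 CPM or more, hsa-miR-1323 in sgCYRANO against sgNT lay at 0.0204 in place of -0.00, with adjusted p = 0.998, a sign change around 0. Each alternative that gave an adjusted p stayed above the threshold. Those with an added pseudocount gave no p. The count of listed strands that passed was 0 in both comparisons under filters of 1 and 10 CPM, centring and F read with 4 denominator degrees of freedom. With 4 degrees of freedom 3 of 868 microRNAs passed in ZSWIM8 KO against WT in place of 86, since the same F is then read against a distribution with heavier tails. The members' summed level follows from the strands summed: with all strands of the cluster it was 360 CPM in ZSWIM8 KO and 141 CPM in WT, 182 CPM in sgCYRANO and 185 CPM in sgNT, and without hsa-miR-512-3p it was 214 CPM in ZSWIM8 KO and 84.8 CPM in WT, 115 CPM in sgCYRANO and 112 CPM in sgNT. The median ratio of error in ZSWIM8 KO against WT stayed between 4.52 and 4.81 with 51 neighbours or with errors from p. Chosen after seeing the data, leaving out the ZSWIM8 KO library with the fewest reads moved the log2 ratio of the rare strands in ZSWIM8 KO over WT to 2.03 from 1.46, matching sums within 0.001 CPM gave 1.35, the strands with a read in WT gave 1.29 (1.86 without that library), those also in the CYRANO table gave 1.32 (1.89 without it), and a margin of 5% on the degrees of freedom gave 22 microRNAs in place of 21. No paired analysis was possible because the tables hold comparisons and no values of single libraries, and for the same reason DESeq2 and fits without 1 replicate were not run. The reading of single libraries was limited by choice to strands whose 3 libraries sum to under 20 CPM, and larger sums were not tried.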

Other observations

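A few microRNAs outside the cluster were also uneven over the 3 ZSWIM8 KO libraries, and are given as values, named after they were seen. hsa-miR-1269a had 0 reads in the 2 deeper libraries and 33 in the third, with 7, 4 and 2 reads in WT from the deepest to the shallowest library. hsa-miR-1293 had 5 reads in the deeper libraries and 13 in the third, with 3, 1 and 0 in WT. hsa-miR-6503-5p had 11 reads in the deeper libraries and 0 in the third, with 7, 7 and 2 in WT, and hsa-miR-3910 had 24 and 1, with 5, 1 and 0 in WT. None of these 4 passed the authors' test, with adjusted p of 0.239 to 0.885 by edgeR in the authors' deposited table.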
